A study of Mus musculus with 6 samples.

Results

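The 81 genes described here encode the nuclear part of the mitochondrial respiratory chain and ATP synthase. They are the rows whose Entrez ID maps to a mouse symbol that begins with *Nduf* followed by a, b, c, s or v and a digit, that reads *Sdha* to *Sdhd* or *Cyc1*, or that begins with *Uqcr*, *Cox4* to *Cox8* or *Atp5*. They were 81 of the 13426 genes in the table. The rule reads symbols and no measured value, but the family was chosen with earlier results of these data known. By complex, 40 belong to complex I, 3 to complex II, 8 to complex III, 13 to complex IV and 17 to complex V. Of the 81, 78 are annotated as protein coding and 3 (*Ndufa11b*, *Ndufs5-ps* and *Ndufs6b*) as pseudogenes. A further 25 annotated symbols fit the rule but had no row in the table, among them 10 protein-coding genes such as *Sdhd*, *Cox7a2*, *Uqcr11* and *Ndufb1*.

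RNA sequencing was done on early LPre-B (large pre-B) cells, B cell progenitors of the bone marrow in which V segments of the immunoglobulin heavy chain locus are normally joined. The study did not detect these joined V products in such cells lacking *Upf1*. Cells were sorted by surface markers that include Lineage-, B220+, sIgM-, CD43+ and CD2- and by a high forward scatter. Control (Ctrl) mice were *Upf1* Flox/Flox, *Mb1* +/+ and Upf1-cKO mice were *Upf1* Flox/Flox, *Mb1* Cre/+, both on the C57BL/6 background. Both groups therefore carry the floxed *Upf1* alleles, and only the cKO group carries Cre, expressed from the B lineage gene *Cd79a* (*Mb1*), of which it has a single allele without Cre. There were 3 libraries per group, from adult mice of matched age per the study's methods, and the study describes its replicates as biological, while the labels do not say which animal or pool of animals each library came from.

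Mitochondria make most ATP by passing electrons along complexes I to IV of the inner membrane and letting the protons pumped on the way flow back through complex V, the ATP synthase. Complexes I, III, IV and V combine subunits encoded in mitochondrial DNA with nuclear-encoded ones, whereas complex II is encoded in the nucleus alone and is also an enzyme of the tricarboxylic acid (TCA) cycle. Nuclear factors that are known to bind promoters of such genes include NRF1, the ETS family factor GABPA and YY1. Large pre-B cells are dividing cells, and UPF1 is the RNA helicase at the centre of nonsense-mediated mRNA decay. The comparison asks how the RNA of these subunits differs between cells of the 2 genotypes.

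Some facts of the libraries bear on every value below. Each library held between 9732498 and 11006834 reads in the table, and values are normalised reads, that is reads per 1e6 reads of an effective library size set by the authors. The *Upf1* row, which adds up reads over all exons, the removed ones included, stood at 241 ± 32.3 in Ctrl and 297 ± 12.7 in cKO libraries (SD, n = 3 each), so it does not check the labels and the second group is called the libraries labelled cKO. All 14 early large pre-B markers had a row, summing to between 2953 and 3204 normalised reads in Ctrl libraries and between 2897 and 3046 in the libraries labelled cKO. Of them 4 fell, such as *Cd79a* (log2 fold change -1.58), the gene that carries Cre on 1 allele in the cKO group, and *Vpreb3* (-1.07). Another 5 rose, such as *Rag1* (1.55) and *Rag2* (1.16) of the recombinase. These are shares of 28.6% and 35.7%, against 25.0% and 27.7% of all genes. The 10 neutrophil markers summed to between 15.2 and 124 normalised reads in Ctrl libraries and between 331 and 465 in the libraries labelled cKO, 5 monocyte and macrophage markers to between 36.7 and 64.3 against 60.9 and 82.7, 5 later B cell markers to between 25.7 and 31.7 against 35.8 and 40.3, 3 plasmacytoid dendritic cell markers to between 138 and 150.3 against 172 and 185 (mostly from *Tcf4*, with *Siglech* below 1 normalised read in every library), and 4 plasma cell markers to between 72.1 and 88.5 against 52.7 and 66.0. The part of these markers in the results was not tested. Of 9 erythroid markers 5 had a row, summing to between 85.7 and 99.1 against 96.2 and 105, mostly from *Car2*. Of 7 T and NK markers only 1 had a row, at no more than 1.42 normalised reads in any library. In bulk RNA, a lower share of a transcript in the sample and less RNA per cell cannot be told apart.

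The promoters of several members contain motifs of the factors named above, and the sequences are shown because the genes that hold them include the member with the largest fall and members that were not called. Promoter windows from 250 bases before to 50 bases after the annotated start were read from RefSeq (GRCm38.p6) for 63 members and 10193 genes in all, and searched on both strands, so the reverse complement also counts as a match. The NRF1 letters GCGCATGCG, which are nearly their own reverse complement, were found in 7 members (11.1%, against 4.13% of all windows). The YY1 letters AAGATGGCG, which contain the letters of a start codon, were found in 7 (11.1% against 3.55%), and the ETS letters CCGGAAGT in 4 (6.35% against 9.18%). No member held more than 1 of the 3 motifs, and 18 held any of them (28.6% against 15.9%). The E-box CACGTG was in 6 (9.52% against 11.7%). The stretches below were picked with the values known and are not all that were found. Among those with the NRF1 letters, *Atp5g2* and *Atp5l*, both called lower, and *Ndufa8*, not called, are not shown. Stretches of 30 bases follow, on the strand of the gene, with the motif in capitals:
Cox6a1 (NRF1, chr5:115349101-115349130, minus strand): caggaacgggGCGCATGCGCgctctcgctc
Atp5k (NRF1, chr5:108434430-108434459, minus strand): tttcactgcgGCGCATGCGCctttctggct
Ndufa11 (NRF1, chr17:56717692-56717721, plus strand): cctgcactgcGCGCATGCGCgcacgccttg
Uqcrc1 (NRF1, chr9:108936668-108936697, plus strand): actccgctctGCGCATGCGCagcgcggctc
Cox8a (ETS, chr19:7217604-7217633, minus strand): atttccgaaatACTTCCGGctcgggcgtcc
Ndufs3 (ETS, chr2:90904703-90904732, minus strand): tgcacatttccACTTCCGGtccgtgccctt
Ndufc1 (YY1, chr3:51408915-51408944, minus strand): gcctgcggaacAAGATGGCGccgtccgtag
Ndufs6 (YY1, chr13:73328433-73328462, minus strand): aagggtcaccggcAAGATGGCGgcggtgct

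Transcripts of the respiratory chain were lower in the libraries labelled cKO in all 5 complexes. By limma with Benjamini-Hochberg adjustment over all 13426 genes, 63 of the 81 members fell at an adjusted p below 0.05, 3 rose and 15 were not called. Over all genes, 25.0% were called lower and 27.7% higher. The median log2 fold change of the members was -0.63, against 0.01 over all genes, and 76 of the 81 values were below 0. In 63 members every library labelled cKO was below every Ctrl library, and in 4 every one was above, where 28.0% and 30.9% of all genes were so separated. Together the members took between 0.630% and 0.743% of the reads in Ctrl libraries and between 0.492% and 0.524% in the libraries labelled cKO. Of the 63 lower calls, 48 held in all the alternatives that made calls. Removal of a trend on transcript length and GC content, described below, made none. When the libraries were scaled to their total reads, the number of members lower was 48 and their median -0.42, while the median of all genes moved to 0.19 and the shares of all genes called lower and higher to 14.4% and 38.5%. The distance between the medians was then -0.61, against -0.64 here. With libraries centred on their median, 68 members were lower and 2 higher, and 32.4% and 22.3% of all genes.

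**Figure D1:**
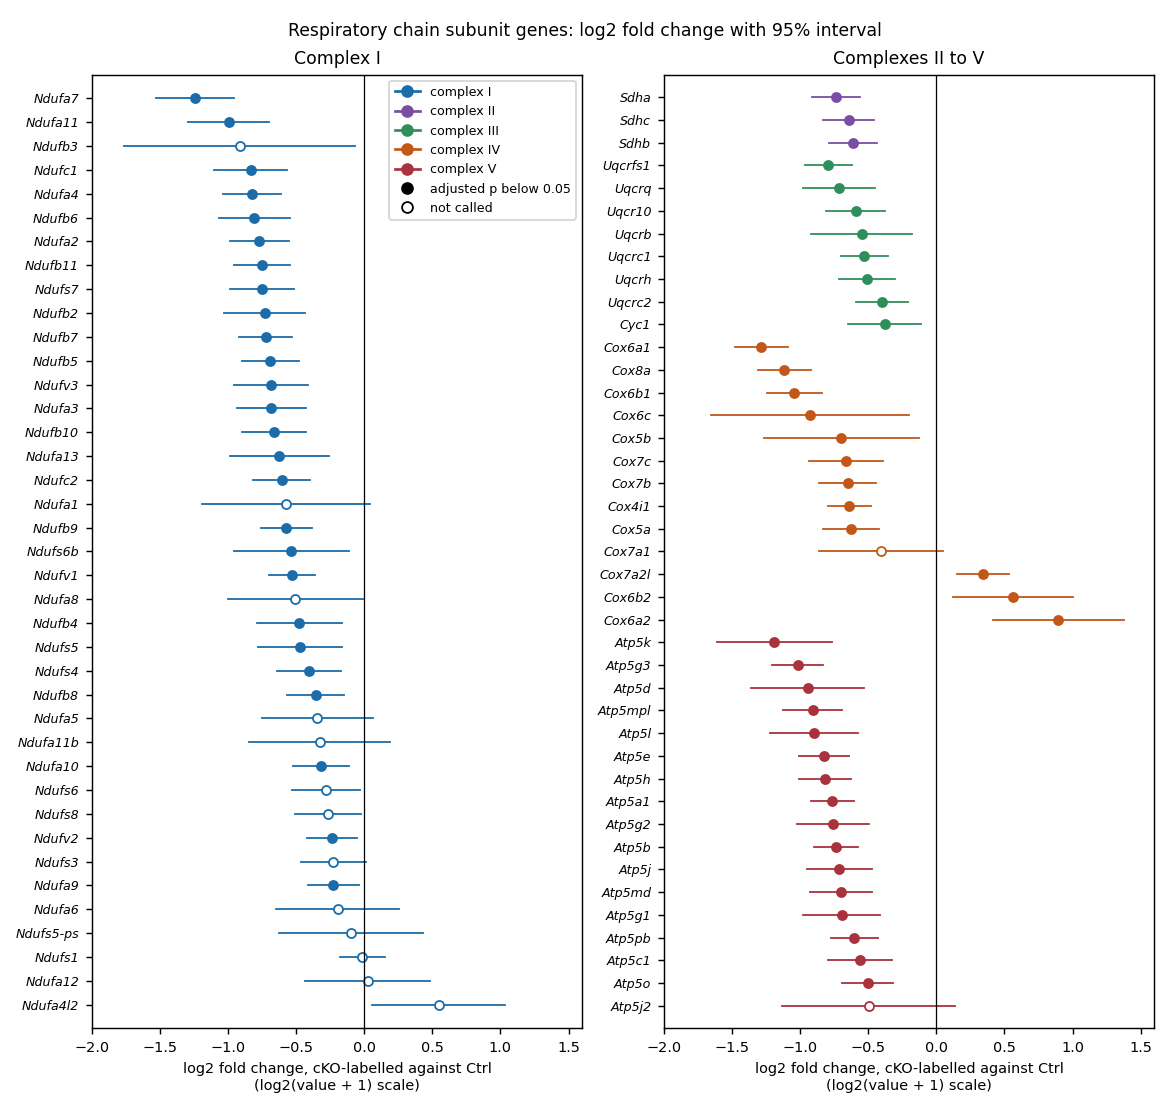
Log2 fold change (horizontal axis, log2(value + 1) scale) of the members, with 1 complex I gene left out, cKO-labelled against Ctrl libraries (n = 3 each), complex I on the left and complexes II to V on the right. Points are limma estimates, lines their 95% intervals and open points genes not called. Most points lie left of 0, with *Cox6a1* at -1.28 the farthest, and 3 filled points of complex IV lie right of 0.

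The complexes differed in how many of their genes were called and in the size of the fall. Over all genes, 25.0% were called lower and 27.7% higher. Complex V had the lowest median log2 fold change at -0.76, with 16 of 17 genes lower. It was followed by complex IV at -0.65, with 9 lower and 3 higher of 13, complex II at -0.64, with 3 of 3 lower, complex III at -0.54, with 8 of 8 lower, and complex I at -0.53, with 27 of 40 lower. In each of these complexes the median in every library labelled cKO was below that in every Ctrl library. For complex V the median deviation from the Ctrl mean, in log2 units, was -0.15, 0.06 and 0.06 in Ctrl libraries 1, 2 and 3 and -0.79, -0.74 and -0.75 in the libraries labelled cKO. For complex I it was -0.10, 0.04 and 0.06 against -0.64, -0.45 and -0.54. The cKO-labelled values of complexes I and V did not overlap, whereas those of complexes II and IV did. The order of the complexes was not tested, and once a trend on length and GC content was removed, complex II was lowest (-0.76, against -0.65 for complex V). Complexes III and I changed places in several settings, such as edgeR (-0.57 for III and -0.65 for I) and voom weights (-0.55 and -0.62). Per kilobase of the longest annotated transcript the median Ctrl level was 42.8 normalised reads for complex I, 71.8 for II, 85.0 for III, 69.2 for IV and 84.0 for V.

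**Figure D2:**
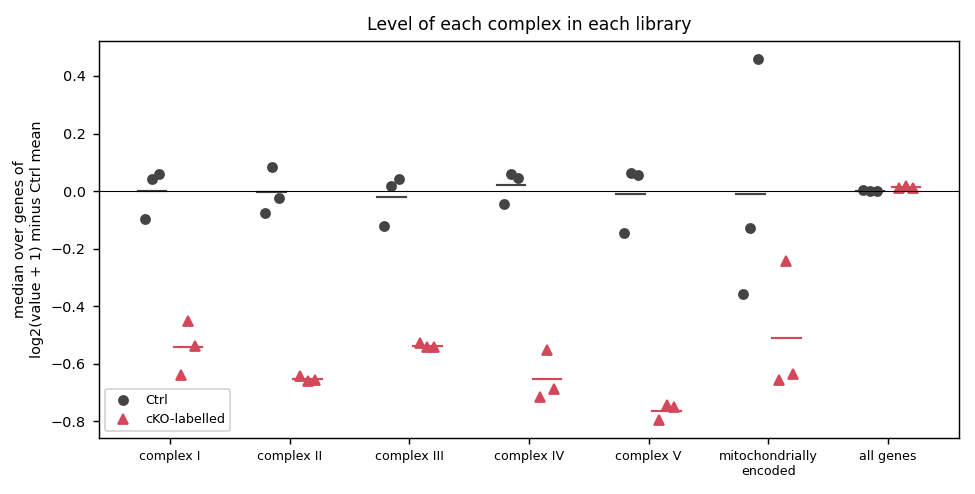
Median over the genes of each complex of log2(value + 1) minus the Ctrl mean of the gene (vertical axis), in each library, with the 9 mitochondrially encoded genes and all 13426 genes for comparison. Circles are Ctrl and triangles cKO-labelled libraries, and short lines are group means. The groups are apart in complexes I to V, overlap for the mitochondrially encoded genes and lie near 0 for all genes.

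Complex I (NADH:ubiquinone oxidoreductase) takes electrons from NADH through its matrix arm and pumps protons in its membrane arm. Its 7 nuclear-encoded core subunits, among them those that carry the flavin and the iron-sulfur clusters, split into 4 that fell and 3 that were not called, with a median log2 fold change of -0.27. The share of all genes called lower was 25.0%. *Ndufs1*, the largest of them, stood at 131, 148 and 142 normalised reads in Ctrl libraries 1, 2 and 3 and at 140.4, 134 and 143 in the libraries labelled cKO. Its log2 fold change was -0.01, with a 95% interval from -0.18 to 0.15 (limma adjusted p = 0.8979), and the groups overlapped.

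*Ndufs7*, which binds the last iron-sulfur cluster before ubiquinone, was at 36.2, 41.7 and 39.5 in Ctrl and at 20.8, 24.8 and 23.0 in the libraries labelled cKO. It fell by 0.75 on the log2 scale (SE 0.11, limma adjusted p = 1.545e-05), the largest fall among the core subunits. *Ndufv1*, the subunit that binds NADH and the flavin, was at 133, 148 and 136 against 92.8, 94.3 and 101 and fell by 0.53 (limma adjusted p = 2.062e-05). In both genes every library labelled cKO was below every Ctrl library. *Ndufv2*, the partner of *Ndufv1*, fell by 0.24 (91.6, 106 and 110.4 against 85.6, 87.8 and 87.0, limma adjusted p = 0.02776), and its call was lost without any 1 of 5 libraries, all but Ctrl replicate 1 (adjusted p from 0.06647 to 0.1011), without an intensity trend and robust estimation (0.08943), with quantile normalization (0.06616) and with scaling to total reads with or without the row of most reads (0.7836 and 0.1743). With total reads its log2 fold change was -0.03. *Ndufs3*, at 26.2, 28.1 and 26.0 against 22.0, 21.3 and 24.9, and *Ndufs8*, at 43.0, 51.7 and 59.5 against 46.6, 38.7 and 41.7, were not called (limma adjusted p = 0.103 and 0.05972), although other settings called both lower. These were median centring and quantile normalization for *Ndufs3* (adjusted p = 0.01766 and 0.02183), and for *Ndufs8* the same settings (0.01044 and 0.04234), edgeR (0.04807) and leaving out Ctrl replicate 1 (0.005353) or cKO replicate 1 (0.04744).

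The accessory subunits surround this core. Of the 19 of the membrane arm, 16 fell and 3 were not called, with a median log2 fold change of -0.66, and of the 9 of the matrix arm 5 fell and 4 were not called, with a median of -0.35. Beside these counts, 25.0% of all genes were called lower. These arms were assigned after the values had been seen. The 3 lowest log2 fold changes in complex I were those of *Ndufa7*, *Ndufa11* and *Ndufb3*. *Ndufa7*, a matrix arm subunit, was at 21.7, 25.1 and 23.0 in Ctrl and at 8.64, 9.15 and 9.99 in the libraries labelled cKO and fell by 1.24 on the log2 scale (SE 0.14, limma adjusted p = 4.094e-07). *Ndufa11*, a membrane arm subunit with the NRF1 letters in its promoter, was at 21.1, 23.3 and 20.4 against 11.9, 10.2 and 8.98 and fell by 0.99 (limma adjusted p = 1.028e-05). Both were lower in every library labelled cKO than in any Ctrl library.

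*Ndufb3*, also of the membrane arm, was at 28.1, 30.1 and 58.3 in Ctrl and at 19.1, 24.5 and 14.6 in the libraries labelled cKO. The groups did not overlap, but the third Ctrl library was far above the other two, and the log2 fold change of -0.92 was not called (limma adjusted p = 0.06934). It was called without Ctrl replicate 3 (adjusted p = 0.005633), without cKO replicate 2 (0.03138) and in 5 other settings, among them DESeq2 (0.02442) and voom weights (0.003722). *Ndufa1* was likewise high in Ctrl library 3, at 12.5, 13 and 26.8 against 9.32, 13.8 and 9.40, and was not called (log2 fold change -0.58, limma adjusted p = 0.1061), though it was without cKO replicate 2 (adjusted p = 0.04115), by DESeq2 (0.01605) and with quantile normalization (0.04798).

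The other complex I members that were not called fall into low and well-measured ones. *Ndufa6*, *Ndufa8* and the pseudogenes *Ndufa11b* and *Ndufs5-ps* had no more than 19 reads in any library. *Ndufa6* had 9, 6 and 7 reads in Ctrl and 4, 5 and 9 in the libraries labelled cKO, *Ndufa11b* 11, 6 and 4 against 0, 5 and 8, and *Ndufs5-ps* 6, 11 and 1 against 3, 9 and 4, and the groups overlapped in each. *Ndufa8*, with 17, 19 and 12 reads against 8, 16 and 5 (log2 fold change -0.50, limma adjusted p = 0.08119), was called lower without cKO replicate 2 (limma adjusted p = 0.02933), with median centring (0.03705) and with quantile normalization (0.01945). *Ndufa12*, a matrix arm subunit, was at 7.28, 15 and 14.8 in Ctrl and at 10.9, 12.5 and 12.8 in the libraries labelled cKO, with a log2 fold change of 0.03 (limma adjusted p = 0.927). *Ndufs6* was at 35.4, 42.9 and 51.5 against 35.3, 33.5 and 36.2 (log2 fold change -0.28, limma adjusted p = 0.05317) and *Ndufa5* at 8.76, 10.2 and 15.5 against 6.98, 10.2 and 8.89 (-0.35, adjusted p = 0.1453), and each was called without Ctrl replicate 1 (adjusted p = 0.003508 and 0.03913) and with quantile normalization (0.02909 and 0.02855). *Ndufs6* was also called by edgeR (adjusted p = 0.03866), DESeq2 (0.04355), median centring (0.009942) and with a replicate block (0.04682). The remaining pseudogene row, *Ndufs6b*, at no more than 36 reads in any library, was called lower (limma adjusted p = 0.03182), a call lost without any 1 of 5 libraries, all but Ctrl replicate 2 (adjusted p from 0.05287 to 0.09514), by edgeR (0.05149) and DESeq2 (0.08347), and with scaling to total reads with or without the row of most reads (0.1158 and 0.06207). Because these 3 pseudogenes resemble *Ndufa11*, *Ndufs5* and *Ndufs6*, reads could have been split between each pair.

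Symbols can mislead for *Ndufa4*, named as a complex I subunit but now known as a part of complex IV. It was at 68.6, 78.5 and 90.0 in Ctrl and at 43.0, 46.8 and 42.5 in the libraries labelled cKO and fell by 0.82 on the log2 scale (limma adjusted p = 2.006e-06), with no overlap between groups. Its paralog *Ndufa4l2*, known as a hypoxia-induced gene, had 2, 5 and 5 reads in Ctrl and 7, 10 and 21 reads in the libraries labelled cKO and was not called (limma adjusted p = 0.05723), although it was called higher without cKO replicate 1 (adjusted p = 0.03375), by edgeR (0.04955), without an intensity trend and robust estimation (0.04734) and with scaling to total reads with or without the row of most reads (0.03106 and 0.04112). With these genes counted in complex IV, the median log2 fold change stayed at -0.53 for complex I and at -0.65 for complex IV.

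**Figure D3:**
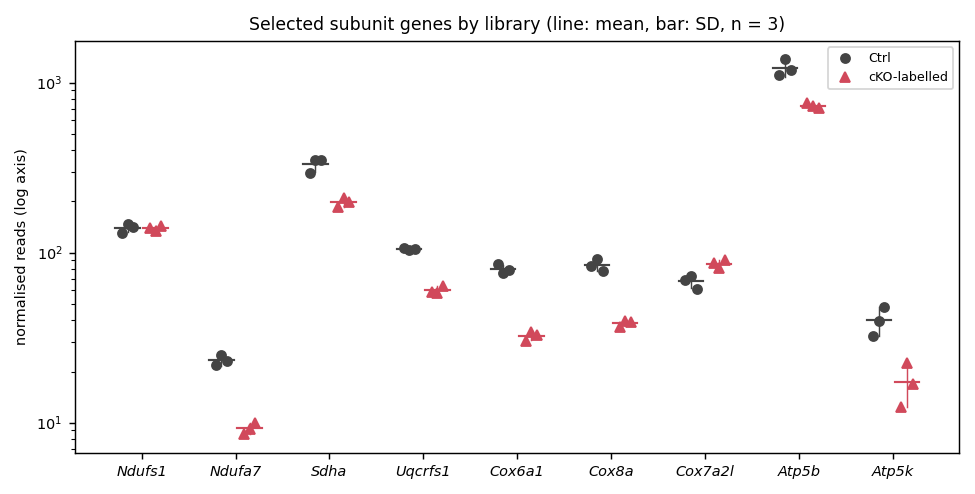
Normalised reads (vertical log axis) of 9 members in each of the 6 libraries, circles for Ctrl and triangles for cKO-labelled libraries, with group means as lines and SD as bars (n = 3). The groups are apart in 8 of the genes and overlap in *Ndufs1*, and *Cox7a2l* is the one shown that was higher in the libraries labelled cKO.

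Complex II (succinate dehydrogenase) passes electrons from succinate to ubiquinone. All 3 genes with a row fell. *Sdha*, the flavoprotein, was at 292, 351 and 353 normalised reads in Ctrl and at 186, 209 and 199 in the libraries labelled cKO, a log2 fold change of -0.74 (SE 0.084, limma adjusted p = 6.623e-07). *Sdhb*, the iron-sulfur subunit, was at 79.8, 85.5 and 80.7 against 52.2, 53.1 and 54.8, and *Sdhc*, a membrane anchor, at 77.6, 89.4 and 78.9 against 54.0, 50.6 and 51.5. They fell by 0.61 (limma adjusted p = 7.625e-06) and 0.64 (limma adjusted p = 7.813e-06). The groups did not overlap in any of these genes, and the 3 calls held in all alternatives that made calls.

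Complex III (cytochrome bc1) hands electrons from ubiquinol to cytochrome c, and its 8 genes all fell. The largest fall was that of *Uqcrfs1*, the Rieske iron-sulfur protein, which was at 106, 103 and 105 in Ctrl and at 58.8, 57.8 and 64.0 in the libraries labelled cKO (log2 fold change -0.79, SE 0.083, limma adjusted p = 2.348e-07). *Cyc1*, cytochrome c1 and the other redox subunit encoded in the nucleus, had the smallest, at 81.2, 122 and 108 against 74.1, 85.5 and 76.4. Here the first Ctrl library lay below the second library labelled cKO. The fall of 0.38 on the log2 scale (limma adjusted p = 0.01905) was no longer called without Ctrl replicate 2 or 3 or without cKO replicate 1 or 3 (adjusted p from 0.05649 to 0.07864), nor without an intensity trend and robust estimation (0.08347). With scaling to total reads it was -0.18 (adjusted p = 0.2435), and without the row of most reads -0.28 (0.05123).

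The core proteins *Uqcrc1* and *Uqcrc2* do not carry redox groups. *Uqcrc1*, one of the genes with the NRF1 letters, was at 185, 220.4 and 188 against 141, 136 and 133 and fell by 0.53 (limma adjusted p = 2.749e-05). *Uqcrc2* was at 156, 201 and 171 against 142, 128 and 128 and fell by 0.40 (limma adjusted p = 0.001195), a call lost when libraries were scaled to total reads (adjusted p = 0.07905). Of the 4 small accessory subunits, *Uqcrq*, at 50.6, 53.9 and 65.0 against 27.9, 39.7 and 35.0, fell by 0.71 (limma adjusted p = 9.976e-05). *Uqcr10*, at 48.2, 49.0 and 43.9 against 33.8, 30.5 and 28.4, fell by 0.59 (limma adjusted p = 9.084e-05). *Uqcrb*, at 23.5, 21.5 and 39.1 against 17.8, 18.2 and 18.6, fell by 0.55 (limma adjusted p = 0.01578) and lost its call without Ctrl replicate 3 (adjusted p = 0.08308) or without cKO replicate 1 (0.05628), without an intensity trend and robust estimation (0.0635) and with scaling to total reads (-0.35, adjusted p = 0.1524). Its Ctrl values were again high in the third library.

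Complex IV (cytochrome c oxidase) reduces oxygen, and it held the largest single fall among the members as well as the rises. Of its genes, 9 encode the forms found in most tissues, and all 9 fell (against 25.0% of all genes), with a median log2 fold change of -0.70. *Cox6a1* had the largest fall of all members, from 85.7, 76.2 and 79.2 in Ctrl to 30.3, 34.0 and 33.0 in the libraries labelled cKO (log2 fold change -1.28, SE 0.093, limma adjusted p = 2.329e-09). *Cox8a* was at 83.8, 92.3 and 78.2 against 36.6, 39.5 and 39.2 (-1.12, limma adjusted p = 1.204e-08), and *Cox6b1*, a subunit facing the intermembrane space, at 105, 106 and 87.7 against 49.5, 44.4 and 49.4 (-1.04, limma adjusted p = 4.147e-08). In these 3 genes the groups were far apart compared with the spread within them.

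*Cox4i1* and *Cox5a*, which join early during assembly of the complex, fell less. *Cox4i1* was at 283, 304 and 289 against 177, 197 and 188 and fell by 0.64 on the log2 scale (limma adjusted p = 8.849e-07). *Cox5a* was at 121, 166 and 143 against 96.5, 87.8 and 90.8 and fell by 0.63 (limma adjusted p = 3.127e-05). The least certain falls were those of *Cox6c* and *Cox5b*. *Cox6c* was at 50.2, 55.7 and 91.1 against 27.6, 43.6 and 29.5 (limma adjusted p = 0.04148) and *Cox5b* at 35.0, 47.4 and 67.6 against 25.8, 35.7 and 27.4 (adjusted p = 0.04451). Both calls were lost without Ctrl replicate 2, without cKO replicate 1 or without cKO replicate 3 (adjusted p from 0.08442 to 0.1028 for *Cox6c* and from 0.1136 to 0.1355 for *Cox5b*), by edgeR (0.05435 and 0.05262) and with scaling to total reads (0.1061 and 0.1556).

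The 3 members that rose all belong to complex IV by symbol. *Cox7a2l*, known for joining complexes III and IV into supercomplexes rather than as a part of the enzyme itself, was at 69.3, 73.2 and 61.0 in Ctrl and at 86.6, 81.2 and 90.5 in the libraries labelled cKO. Its log2 fold change was 0.34 (SE 0.090, limma adjusted p = 0.003801), the groups did not overlap, and it was called higher in all alternatives that made calls. *Cox6a2*, the heart and muscle form of subunit 6A, had 4, 0 and 5 reads in Ctrl and 11, 19 and 19 reads in the libraries labelled cKO (limma adjusted p = 0.002937). *Cox6b2*, the testis form of subunit 6B, had 25, 19 and 35 reads against 45, 53 and 48 (limma adjusted p = 0.03064) and lost its call without Ctrl replicate 2 or without any 1 of the libraries labelled cKO (adjusted p from 0.05068 to 0.1277), and by DESeq2 (0.08299), median centring (0.07532) and quantile normalization (0.1299). *Cox7a1*, another muscle form, was not called, at 21, 21 and 29 reads against 17, 22 and 13 (log2 fold change -0.41, limma adjusted p = 0.1224), although it was with quantile normalization (adjusted p = 0.02836).

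For pairs of genes that encode alternative forms of 1 subunit, the ratio within a library does not depend on how libraries were scaled. The log2 ratio of *Cox6a1* to *Cox6a2* was 7.49, 10.6 and 7.18 in Ctrl and 4.75, 4.27 and 4.33 in the libraries labelled cKO (exact permutation p = 0.1, adjusted p = 0.2 over 6 ratios). The second Ctrl value has no reads of *Cox6a2* behind it and is set by the 0.5 read added to every count, so no mean is given. *Cox6a2* also has a row only through the libraries labelled cKO, so the direction of this ratio is no independent support. That of *Cox6b1* to *Cox6b2* was 5.22 ± 0.56 against 3.43 ± 0.20 (SD, n = 3 each, exact permutation p = 0.1, adjusted p = 0.2). The smallest p that 3 libraries against 3 allow is 0.1, so no ratio could pass, and the tissue forms remained a small part of each pair in both groups.

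In complex V (ATP synthase), genes of the rotating and static parts fell. The catalytic F1 part was lower in 5 of 5 genes (median log2 fold change -0.77), the c ring in 3 of 3 (-0.76), the peripheral stalk in 4 of 4 (-0.66) and the Fo membrane part in 4 of 5 (-0.90). Among all genes, 25.0% were called lower. *Atp5b*, the catalytic beta subunit and the member with the highest level per kilobase, was at 1103, 1369 and 1186 normalised reads in Ctrl and at 754, 725 and 708 in the libraries labelled cKO (log2 fold change -0.74, SE 0.078, limma adjusted p = 2.832e-07). *Atp5a1*, the alpha subunit, was at 870.3, 1031 and 1000.0 against 556, 596 and 551 (-0.77, limma adjusted p = 1.16e-07). The central stalk subunit gamma, *Atp5c1*, was at 75.6, 88.3 and 112 against 61.9, 60.7 and 60.6 (-0.56, limma adjusted p = 0.0003584). In these 3 genes every library labelled cKO was below every Ctrl library.

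The largest fall in complex V was that of *Atp5k*, subunit e of the Fo part, which is known to take part in ATP synthase dimers. It was at 32.6, 39.8 and 48.0 in Ctrl and at 12.4, 22.3 and 17.0 in the libraries labelled cKO (log2 fold change -1.19, SE 0.19, limma adjusted p = 0.000278). *Atp5d*, the delta subunit of the central stalk, was low, with 70, 83 and 67 reads against 26, 47 and 42, and fell by 0.94 (limma adjusted p = 0.0005589). The one complex V gene not called was *Atp5j2*, subunit f, at 62.9, 70.7 and 107 against 51.5, 70.6 and 45.7 (-0.50, limma adjusted p = 0.1577), which was called without cKO replicate 2 (adjusted p = 0.01784) and with voom weights (0.02258).

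The c ring is encoded by 3 genes that give the same mature protein. *Atp5g3* was at 182, 225 and 222 against 95.7, 106 and 106 and fell by 1.02 (limma adjusted p = 2.428e-08). *Atp5g2* was at 27.9, 31.0 and 26.3 against 15.9, 14.8 and 18.5 and fell by 0.76, and *Atp5g1* was at 28.4, 36.8 and 25.8 against 20.1, 16.4 and 18.2 and fell by 0.70. The log2 ratio of *Atp5g1* to *Atp5g3* was -2.80 ± 0.27 in Ctrl and -2.50 ± 0.23 in the libraries labelled cKO (SD, n = 3 each, exact permutation p = 0.3, adjusted p = 0.36), where again no p below 0.1 was possible. The other ratios among them gave exact permutation p = 0.2 and 0.6.

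The members are short genes. Their longest annotated transcripts had a median of 875 bases, against 3081 for all genes, and their GC content a median of 51.5% against 50.2%. Short genes were lower in general in the libraries labelled cKO. Among all genes the median log2 fold change was -0.41 for the 243 shorter than 700 bases, -0.14 for 1519 of 700 to under 1500 bases and 0.05 for 10393 of 1500 bases or more. The members stood at -0.70 (26 genes), -0.65 (32 genes) and -0.56 (21 genes) in the same classes, and 76.9%, 68.8% and 95.2% of them were called lower, where 51.0%, 30.5% and 24.3% of all genes of those lengths were. With a smooth trend on length and GC content taken off, the median of the members was -0.51. Spearman's rho between log2 fold change and length was 0.23 over 79 members and 0.10 over 12155 genes, as a description of genes that share the same libraries.

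**Figure D4:**
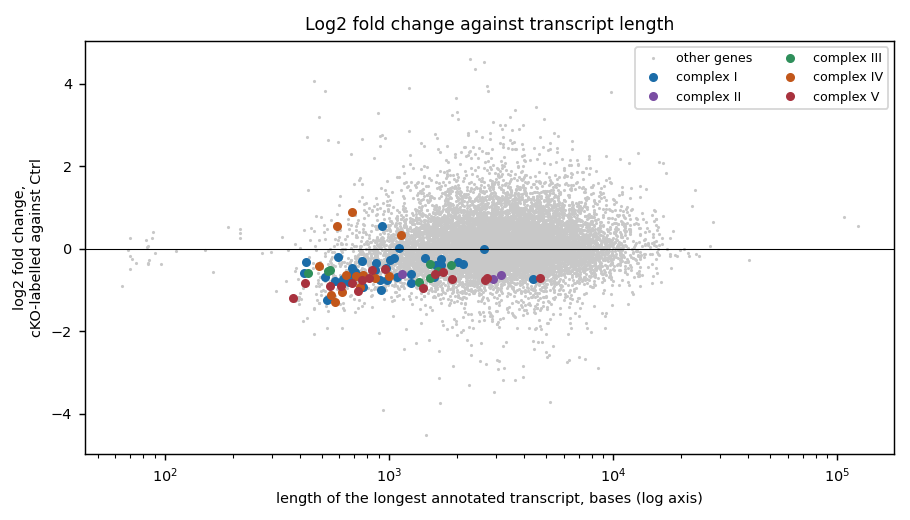
Log2 fold change, cKO-labelled against Ctrl (vertical axis), against the length of the longest annotated transcript in bases (horizontal log axis), for other genes in grey and for 79 members coloured by complex. Members lie mostly at the short end and below 0, and those of 1500 bases or more also lie below 0.

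By promoter motif, the members with the NRF1 letters had a median log2 fold change of -0.90, against -0.64 for the other members with a window. Those with the YY1 letters stood at -0.50 against -0.66, those with the ETS letters at -0.66 against -0.66 and those with the E-box at -0.80 against -0.65. These are descriptions of few genes.

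The RNA of the mitochondrially encoded subunits, which complexes I, III, IV and V need as partners, was measured for 9 of 13 genes, none of them of complex V. Of these, 1 (*ND3*, a complex I core subunit) was called lower and none higher (against 25.0% and 27.7% of all genes), with a median log2 fold change of -0.50 that was -0.17 without Ctrl replicate 3. The number lower was 2 without Ctrl replicate 1 or 3, by DESeq2 or with median centring, 3 with a replicate block and 4 without cKO replicate 2 or with voom weights. Of all genes, 32.4% were lower with median centring and 22.2% to 25.0% in the other settings named. *COX1*, the catalytic subunit of complex IV, was at 1260.0, 1452 and 1840.0 in Ctrl and at 1255, 1306 and 1321 in the libraries labelled cKO (limma adjusted p = 0.1296). *CYTB*, of complex III, was at 465, 513 and 742 against 356, 474 and 361 (limma adjusted p = 0.1014). The groups overlapped in both genes, and the third Ctrl library was the highest. The summed level of these 9 genes divided by that of the 81 nuclear-encoded ones was 0.488, 0.492 and 0.720 in Ctrl and 0.625, 0.754 and 0.626 in the libraries labelled cKO, which overlapped.

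Assembly factors, which build the complexes without remaining in them, were called in both directions. Of 54 with a row, 12 fell and 11 rose (22.2% and 20.4%, against 25.0% and 27.7% of all genes), so the counts do not set them apart from other genes. Their median log2 fold change was -0.04, a value whose sign turned to 0.15 when libraries were scaled to total reads (5 lower, 21 higher, where 14.4% and 38.5% of all genes were called). With median centring their median was -0.15, and 19 were lower and 11 higher, beside 32.4% and 22.3% of all genes. With quantile normalization it was -0.19, and 18 were lower and 11 higher, beside 27.9% and 24.8% of all genes. Without Ctrl replicate 2, 7 were lower, beside 23.3% of all genes. *Ndufaf6* and *Ndufaf5*, of complex I, were at 8.23, 9.95 and 11.3 against 33.9, 34.6 and 36.2 (log2 fold change 1.74, limma adjusted p = 4.34e-09) and at 12.8, 11.8 and 10.6 against 30.1, 27.6 and 28.5 (1.23, adjusted p = 1.963e-07). *Cox18*, which inserts a complex IV subunit into the membrane, was at 6.0, 7.22 and 8.29 against 20.5, 18.3 and 18.1 (1.30, limma adjusted p = 1.132e-06). In these 3 genes the groups did not overlap.

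By complex, the assembly factors lower and higher were 4 and 4 of 17 for complex I, 1 and 0 of 4 for II, 2 and 2 of 6 for III, 4 and 4 of 22 for IV and 1 and 1 of 5 for V, counts too small to read against the 25.0% and 27.7% of all genes. Others that rose included *Bcs1l* (log2 fold change 0.83), which inserts the Rieske protein, *Uqcc1* (0.76), *Sco1* (0.94), a copper chaperone of complex IV, and *Atpaf2* (0.74), of complex V. Those that fell included *Ndufaf1* (-0.75), *Cmc2* (-0.77) and *Fmc1* (-0.83), with limma adjusted p of 7.214e-05, 1.278e-05 and 0.001356.

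Of the mobile electron carriers, *Cycs* (cytochrome c) fell from 18.4, 22.1 and 24.1 to 16.8, 11.9 and 13.1 (log2 fold change -0.60, limma adjusted p = 0.002326). Counted with the 11 genes of ubiquinone synthesis listed, 3 fell and 6 rose (against 25.0% and 27.7% of all genes), with a median of 0.33. Scaled to total reads, 3 were lower and 9 higher, with a median of 0.53, where 38.5% of all genes were higher. *Coq8b*, a regulator of that synthesis, was at 10.4, 7.93 and 10.5 against 37.7, 25.8 and 30.8 (1.61, limma adjusted p = 6.895e-08), and *Coq6*, a hydroxylase of the pathway, at 23.2, 24.5 and 21.3 against 67.2, 51.4 and 60.5 (1.33, adjusted p = 1.458e-08). Both were higher in every library labelled cKO. *Coq8a*, its relative, also rose (1.18).

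The TCA cycle, which feeds complexes I and II, was lower in 11 of 14 genes and higher in 0 (against 25.0% and 27.7% of all genes), with a median of -0.39. Scaled to total reads, it had 5 lower and 1 higher (against 14.4% and 38.5% of all genes) and a median of -0.18. *Idh3g*, a subunit of isocitrate dehydrogenase, was at 105, 108 and 105 in Ctrl and at 54.5, 54.6 and 52.6 in the libraries labelled cKO (log2 fold change -0.96, limma adjusted p = 1.499e-08). *Mdh2* (-0.82) and *Ogdh* (-0.74) followed. Genes of the outer membrane and of protein import were lower in 8 of 13 and higher in 1 (median -0.37), and with scaling to total reads in 5 and 1 (median -0.16).

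Mitochondrial ribosomal protein rows were lower in 40 of 77 and higher in 4 (median log2 fold change -0.36), and cytoplasmic ribosomal protein rows, a family with many near-identical copies, in 67 and 3 of 97 (-0.42), again beside 25.0% and 27.7% of all genes. The lower calls of both were 24 and 43 with scaling to total reads, beside 14.4% of all genes.

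Among 14 regulators of these genes, 6 fell and none rose (against 25.0% and 27.7% of all genes), with a median log2 fold change of -0.08. With scaling to total reads none fell, 5 rose (35.7%, against 38.5% of all genes) and the median was 0.10. *Nrf1* was at 124, 119.6 and 112 in Ctrl and at 95.7, 91.2 and 96.2 in the libraries labelled cKO (-0.33, limma adjusted p = 0.002109). *Gabpa* was at 120.2, 116 and 134 against 96.5, 96.8 and 97.2 (-0.34, limma adjusted p = 0.001466), and *Tfam*, which packages and transcribes mitochondrial DNA, at 82.1, 81.6 and 75.6 against 61.4, 62.9 and 65.5 (-0.33, adjusted p = 0.00296). *Myc*, which promotes mitochondrial gene expression in dividing cells, was at 119, 155 and 146 against 138, 181 and 139 and was not called (0.12, limma adjusted p = 0.4022).

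**Figure D5:**
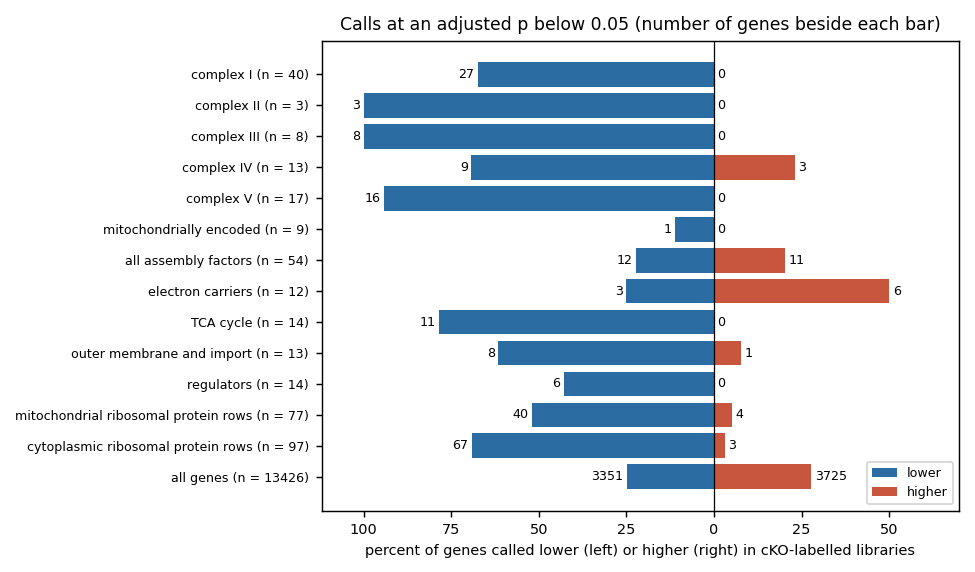
Percent of the genes in each list called lower (left, blue) or higher (right, red) in cKO-labelled libraries at a limma adjusted p below 0.05, with the number of genes beside each bar and the list size in its label. The bars of complexes I to V and of the TCA cycle lie mostly to the left, those of the assembly factors are about equal on both sides, and all genes are at 3351 lower and 3725 higher.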

How the data were processed

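The authors deposited 1 linear signal per gene and library. Its values step as (reads + 0.5) per 1e6 reads of the effective library, a size set by the authors that differs from the total, and whole reads, within 0.1 read, were recovered for 100% of values. Per the submitters' processing notes, reads were trimmed with cutadapt 4.0, aligned to mm10 with HISAT2 and counted with featureCounts 2.0.1, and limma 3.48.0 was used. The study's methods describe rRNA depletion, single-end reads and alignment without use of strand, so reads of overlapping genes cannot be told apart, and exons of 30 members overlap those of another gene. Genes below about 0.5 reads per 1e6 had been removed, since every gene exceeds that in 3 libraries.

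Members and complexes came from RefSeq symbols (GRCm38.p6 annotation), found for 13008 of 13426 IDs, and of the others 3 had a GENCODE name, none of which matched the rule. Transcript lengths came from GENCODE release M21 (79 members, 90.5% of genes). Members and lists were chosen with earlier results of these data known. The rule for values in full covered the Sdh genes, redox and core subunits, paralogs, the 3 lowest log2 fold changes per complex and members higher or not called, and at most 3 genes of other lists. *Uqcrb*, *Cox6c*, *Cox5b* and *COX1*, among others, were added after their values were seen.

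The log2(value + 1) of all genes was fitted with limma 3.58.1 (R 4.3.3), two-sided, with an intensity trend, robust estimation and group as the only term. Log2 fold changes on this scale understate changes of low genes, and adjusted p-values are limma's unless another tool is named. The fit was tested on simulated data. Of the members, 66 had at least 100 reads in every library and 9 had under 20 in some library. Alternatives used edgeR 4.0.16 and DESeq2 1.42.0 on recovered reads, other scalings, pseudocounts and filters, a replicate block and leaving out each library. Scaling without the row of most reads was added after seeing the data. The values of 1 member, which is counted in all totals, are not reported here.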

Additional observations from a re-analysis of the deposited data

How the results depend on the processing

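Lower members numbered 63, with 59 without both an intensity trend and robust estimation, 65 with voom weights, 62 with edgeR (which called 3337 genes lower and 3645 higher in all), 65 with DESeq2, 69 with quantile normalization, 63 with a pseudocount of 0.1 or none, and 55 to 65 when each library was left out. The share of all genes called lower was 22.4% to 27.9% in these settings, and 21.4% to 25.0% when each library was left out. Deviations of same-numbered libraries were little correlated (0.126, -0.063 and -0.079), which cannot show whether the libraries were collected in pairs. The labels of same-numbered libraries carry adjacent serial numbers. With a replicate block 64 members were lower and 3 higher, beside 24.7% and 27.3% of all genes. With only genes of a mean log2 value of at least 3, 61 of 71 members were lower and 1 was higher, beside 31.3% and 28.7% of all genes kept. No direction of a complex turned in any alternative. The median of all members was -0.70 with DESeq2, -0.73 with median centring, -0.42 scaled to total reads, -0.53 scaled without the row of most reads (added after seeing the data) and -0.51 with the trend on length and GC content removed. In the same order, complex I stood at -0.67, -0.64, -0.38, -0.48 and -0.42, and at -0.65 with edgeR. With median centring, total reads, total reads without that row and the trend removed, in this order, complex II stood at -0.75, -0.44, -0.55 and -0.76, complex III at -0.65, -0.34, -0.45 and -0.45, complex IV at -0.76, -0.45, -0.56 and -0.49 and complex V at -0.87, -0.56, -0.67 and -0.65. Leaving out 1 library gave -0.68 to -0.58 for complex II and -0.74 to -0.61 for complex IV. Higher members numbered 3, and 2 to 4 in the settings other than the filter on low values, with *Ndufa4l2* among them where there were 4 and without cKO replicate 1. The cause of these shifts was not tested. Depth limits the 9 members with under 20 reads in some library.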

Other observations

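In some members a single library stood above its own group. By a rule chosen after seeing the data, a library was counted when it exceeded both others of its group by more than 0.4 on the log2(value + 1) scale. The third Ctrl library did so in 8 members (*Atp5j2*, *Cox5b*, *Cox6c*, *Ndufa1*, *Ndufa13*, *Ndufa5*, *Ndufb3* and *Uqcrb*), which is 9.88% of the members against 3.17% of all genes. The second library labelled cKO did so in 5 (*Atp5j2*, *Cox6c*, *Ndufa1*, *Ndufa8* and *Ndufs5-ps*), or 6.17% against 2.60%. The first Ctrl library and the third labelled cKO did so in 1 member each, and the remaining libraries in 0. The same libraries, Ctrl 3 and cKO 2, had the highest median deviation of the mitochondrially encoded genes in their groups, at 0.46 and -0.24 log2 units. *ND5*, of complex I, was at 795, 944 and 1309 normalised reads in Ctrl and at 611, 836 and 606 in the libraries labelled cKO, and *ND6* at 204, 232 and 376 against 126, 218 and 126, and neither was called (limma adjusted p = 0.116 and 0.145).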
